A study of Mus musculus with 12 samples.

Results

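Contactins and contactin-associated proteins (Cntnap, also called Caspr) are adhesion proteins of neuronal and glial membranes, and 10 of their genes were followed here among the 55335 genes counted in nuclei of the newborn mouse forebrain. They were Cntn1, Cntn2, Cntn3, Cntn4, Cntn5, Cntn6, Cntnap2, Cntnap4, Cntnap5a and Cntnap5c, taken by name from the gene list of the files. The choice was made with earlier results of these data known. At postnatal day 1 (P1) each was detected, with between 18682 (Cntn2) and 402940 (Cntnap2) unique molecular identifiers (UMIs, tags that each mark a captured RNA molecule) over the kept nuclei. Each gene had its own order of cell classes. Cntnap2 peaked in Cajal-Retzius-like neurons, Cntn1 in oligodendrocyte-lineage-like nuclei, Cntn4 and Cntn5 in striatal projection neurons and Cntn2 in excitatory neurons. Between wild-type and Myt1l heterozygous animals 0 of the 10 genes were called in any class by the main test, and 0.0123% of all pairs of gene and class were.

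Contactins are immunoglobulin-type proteins held on the outer membrane by a lipid anchor, and Cntnap proteins are neurexin-like proteins that span it. In myelinated axons Cntn1 pairs with Cntnap1 at the paranode and Cntn2 with Cntnap2 beside it, where the complex holds voltage-gated potassium channels in place. Before myelin forms, contactins take part in axon guidance and in the choice of synaptic partners, and CNTNAP2 is among the human genes linked to epilepsy and autism.

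Single-nucleus RNA libraries came from 8 wild-type (WT) and 4 heterozygous (Het) mice of the Myt1l S710fsX line, which carries a germline frameshift in the neuronal transcription factor gene Myt1l on a C57BL/6 background, and each library was 1 animal. The WT libraries were 5 males and 3 females and the Het libraries 3 males and 1 female, so every Het female value rests on 1 animal. All were labelled P1 forebrain, although 1 passage of the study's methods names prefrontal cortices.

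In all 94305 nuclei were kept (55031 WT and 39274 Het), with a median of 1887 UMIs and 1146 genes per nucleus and 9714416 to 24110005 UMIs per library. Libraries shared 0 barcodes. Groups follow the labels, and 1 passage of the study's text gives the sizes of the genotype groups the other way round from its figure legend, which has them as the labels do. A frameshift need not lower the count of a transcript, and the level of the mutant transcript was not tested, so Myt1l was not taken as a check of the labels. Myt1l had between 1269 and 1608 CPM (UMIs of a gene scaled to a common total) in WT and between 1527 and 1645 CPM in Het libraries over all kept nuclei. In all excitatory nuclei every Het library (1832 to 2046 CPM) lay above every WT library (1410.3 to 1789 CPM), and in all inhibitory nuclei they overlapped. Classes were gated nucleus by nucleus on marker genes that include none of the 10 genes, and 64836 nuclei (68.8%) fell into 18 classes, 16 of which had at least 10 nuclei in at least 3 libraries of each genotype. Excitatory neurons are abbreviated ExN, inhibitory neurons InhN and corticothalamic CT. All excitatory nuclei are those of the classes named ExN and all inhibitory nuclei those of the classes named InhN. Cajal-Retzius-like neurons are therefore in neither pooled group. Cortical interneurons arise in the medial (MGE) or caudal (CGE) ganglionic eminence, and projection neurons of the striatum are named D1 or D2 after the dopamine receptor they carry. The class gated on layer 6b and subplate markers rested on Nr4a2 and is called Nr4a2-gated, and the class gated on microglial markers was led by Mrc1, F13a1 and Stab1 and is called macrophage/microglia-like. WT male 4 held 15 D1-like and 13 D2-like nuclei, and values that rest on them are named as such. Levels are CPM of the UMIs summed over the nuclei of a class in a library. A mean ± SD is over the 8 WT libraries unless another n is given. Levels are not scaled by gene length, so each gene is compared between classes and not with another gene.

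Most of the genes are very long, and 4 lie on chromosome 6 (GRCm38, GENCODE annotation). Cntnap2 (ENSMUSG00000039419.17) spans 45059357 to 47304213 there, on the plus strand, a stretch of 2245 kb that overlaps 28 other annotated genes, 24 of them on its own strand. Cntn3 (minus strand, 102162655 to 102573101), Cntn6 (plus strand, 104492790 to 104863406) and Cntn4 (plus strand, 105677660 to 106699310) lie near one another. Cntn5 spans 1244 kb of chromosome 9 and overlaps 7 genes, whereas Cntn2 spans 33.8 kb of chromosome 1 and overlaps none. A UMI that matched several genes had been divided among them before deposition. Entries with divided UMIs held 20.8% of the UMIs of Cntnap2, 18.6% of those of Cntn5, 11.7% of those of Cntnap5a and, although it overlaps no annotated gene, 11.4% of those of Cntn4, against 0.590% of those of Cntn2.

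MYT1-family factors are known to bind DNA at the core AAGTT, so the 250 bases before the start sites were searched for it on both strands (AAGTT or AACTT). RefSeq start windows (GRCm38.p6) were at hand for 7 of the 10 genes. Cntnap4, Cntnap5a and Cntnap5c had no entry. Of 32851 windows of this length 35.3% held the core, and 4.20% held AAAGTTT or AAACTTT, which contain it. The 5 windows printed here are 1 each for Cntn1, Cntn2, Cntn3, Cntn4 and Cntnap2, and windows of Cntn5 and Cntn6 were left out. Each is given 5′ to 3′ on the strand of its gene with matches in capitals. Those of Cntn3 and Cntn4 lie deep inside the annotated gene, at internal start sites, and those of Cntn2 and Cntnap2 also lie inside it, nearer to its start.
Cntn1, chr15:92050915-92051164, plus strand: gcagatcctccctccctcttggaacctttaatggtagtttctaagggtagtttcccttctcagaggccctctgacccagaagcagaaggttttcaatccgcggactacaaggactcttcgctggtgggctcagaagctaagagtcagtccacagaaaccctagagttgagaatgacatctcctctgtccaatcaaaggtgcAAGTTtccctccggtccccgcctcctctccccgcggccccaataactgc
Cntn2, chr1:132542941-132543190, minus strand: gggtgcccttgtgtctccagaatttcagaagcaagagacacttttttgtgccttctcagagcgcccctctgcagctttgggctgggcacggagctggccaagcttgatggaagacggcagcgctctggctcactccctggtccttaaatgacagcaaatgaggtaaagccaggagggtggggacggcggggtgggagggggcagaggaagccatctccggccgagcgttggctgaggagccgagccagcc
Cntn3, chr6:102464668-102464917, minus strand: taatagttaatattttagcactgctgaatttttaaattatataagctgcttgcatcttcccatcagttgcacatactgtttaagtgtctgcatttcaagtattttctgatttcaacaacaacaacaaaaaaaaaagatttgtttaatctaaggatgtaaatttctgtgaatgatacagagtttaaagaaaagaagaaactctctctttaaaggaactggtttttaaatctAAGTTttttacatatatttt
Cntn4, chr6:106118692-106118941, plus strand: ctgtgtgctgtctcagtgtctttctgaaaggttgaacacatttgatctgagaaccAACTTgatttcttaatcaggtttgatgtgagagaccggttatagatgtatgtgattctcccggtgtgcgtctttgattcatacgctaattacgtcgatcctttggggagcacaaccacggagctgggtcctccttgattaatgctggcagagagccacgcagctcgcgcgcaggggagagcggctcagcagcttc
Cntnap2, chr6:45059811-45060060, plus strand: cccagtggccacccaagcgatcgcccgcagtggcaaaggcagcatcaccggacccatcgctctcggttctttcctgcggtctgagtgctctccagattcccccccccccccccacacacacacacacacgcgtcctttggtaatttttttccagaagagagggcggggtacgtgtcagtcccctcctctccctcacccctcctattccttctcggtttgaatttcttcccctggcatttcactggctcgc
The windows of Cntn1, Cntn3 and Cntn4 each held 1 core match and those of Cntn2 and Cntnap2 held 0, and none of the 5 held the longer form. Of all 12 windows of the 7 genes 5 held the core, in 3 genes, since a further window of Cntn1 held it and a further window of Cntn4 overlaps the printed one and shares its match, while the other windows of Cntn1 and Cntnap2 and those of Cntn5 and Cntn6 did not. A window with 0 matches says only that these letters are not in it.

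Cntn1, the contactin of the axonal paranode, was highest in oligodendrocyte-lineage-like nuclei. The 8 WT libraries ran from 1287 to 1579 CPM there (median 1442), and Het male 1, male 2, male 3 and female 1, the order used for Het values from here on, had 1386, 1513, 1364 and 1124 CPM. Het female 1 lay below the WT range and the 3 Het males within it. The WT mean of 1439.6 ± 86.0 CPM (SD, n = 8) was 1.75 times that of the next class, D1-like InhN at 820.4 ± 83.5 CPM, and the libraries of these classes did not overlap. Most neuronal classes followed closely, but CGE-like InhN had 299 ± 89.5 CPM and Cajal-Retzius-like neurons 106 ± 45.2 CPM, near the 100.2 ± 13.8 CPM of astroglia-like nuclei. With every nucleus thinned to 800 UMIs, 65.3% of oligodendrocyte-lineage-like nuclei held a Cntn1 UMI against 3.11% of fibroblast-like nuclei, a class with little of most of these genes (83.5% and 6.15% unthinned, at median depths of 1513 and 1549 UMIs). Fibroblast-like nuclei were the lowest class for most of the genes, and other non-neuronal classes held more. The thinned Cntn1 share was 9.64% in macrophage/microglia-like (n = 7) and 11.0% in mural-like nuclei (n = 6).

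Cntn2, known as TAG-1 and carried by growing cortical axons, was highest in excitatory classes. L6 CT-like ExN ran from 107 to 162 CPM in WT libraries (median 140.4) and had 141, 169.6, 166 and 124 CPM in Het libraries. Upper-layer-like ExN (127 ± 37.2 CPM), Cajal-Retzius-like neurons (95.8 ± 34.8 CPM) and L5-like ExN (78.6 ± 37.9 CPM) followed, and neighbouring classes overlapped at every step of the order. D1-like InhN had 21.5 ± 8.95 CPM and MGE-like InhN 21.8 ± 4.29 CPM. The thinned share of nuclei with a Cntn2 UMI was 10.6% in upper-layer-like ExN and 0.664% in fibroblast-like nuclei. It was 1.84% in macrophage/microglia-like and 3.89% in mural-like nuclei. Mural-like (58.7 ± 50.1 CPM, n = 6) and macrophage/microglia-like nuclei (41.2 ± 31.6 CPM, n = 7) had Cntn2 means above that of every InhN class.

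Cntn3, an axonal contactin known as PANG, was highest in L5-like ExN, where WT libraries ran from 405 to 550.3 CPM (median 438) and Het libraries had 596, 689, 595 and 449.7 CPM. The 3 Het males lay above the WT range and the Het female within it. MGE-like InhN (427 ± 33.3 CPM), Cajal-Retzius-like neurons (364 ± 123 CPM) and upper-layer-like ExN (338 ± 64.5 CPM) followed with overlap. L6 CT-like ExN had the lowest mean of the cortical excitatory classes, 79.2 ± 22.9 CPM, overlapping with Nr4a2-gated ExN but not with L5-like or upper-layer-like ExN, and fibroblast-like nuclei had a mean of 177 CPM. The thinned share in fibroblast-like nuclei, 9.92% against 24.1% in L5-like ExN, is therefore not a background for this gene.

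Cntn4, which binds amyloid precursor protein in axon targeting, was highest in striatal and MGE-like InhN. In D1-like InhN WT libraries ran from 841 to 3219 CPM (median 1895), the highest being WT male 4, and Het libraries had 1701, 1029, 1135 and 1277 CPM, all within that range. D2-like InhN (1551 ± 516 CPM) and MGE-like InhN (1371 ± 196 CPM) overlapped with it, and MGE-like InhN lay above the next class, L5-like ExN at 795 ± 123 CPM, without overlap. Oligodendrocyte-lineage-like nuclei had 687 ± 71.5 CPM and astroglia-like nuclei 49.0 ± 20.5 CPM.

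Cntn5, known as NB-2, was also highest in D1-like InhN, with WT libraries from 2432 to 4818 CPM (median 4031) and Het libraries at 3896, 3933, 4452 and 3670.3 CPM. L5-like ExN (2621 ± 210.1 CPM), D2-like InhN (2573 ± 381 CPM) and L6 CT-like ExN (2068 ± 390.1 CPM) followed with overlap, and MGE-like InhN, high for Cntn4, had 912 ± 107 CPM. The thinned share with a UMI was 75.5% in D1-like InhN and 6.60% in fibroblast-like nuclei. Macrophage/microglia-like (664 ± 322 CPM, n = 7) and mural-like nuclei (450.1 ± 207 CPM, n = 6) had more Cntn5 than fibroblast-like nuclei (96.6 ± 40.7 CPM).

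Cntn6, known as NB-3 and a ligand of Notch1, had a pair of high classes. MGE-like InhN ran from 610.3 to 886 CPM in WT (median 650.0) and had 648, 577, 581 and 618 CPM in Het libraries, of which 2 lay below the WT range. L5-like ExN overlapped with it at 679 ± 148 CPM and lay above upper-layer-like ExN (282 ± 61.8 CPM) without overlap. Cajal-Retzius-like neurons had 33.3 ± 12.5 CPM.

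**Figure D1:**
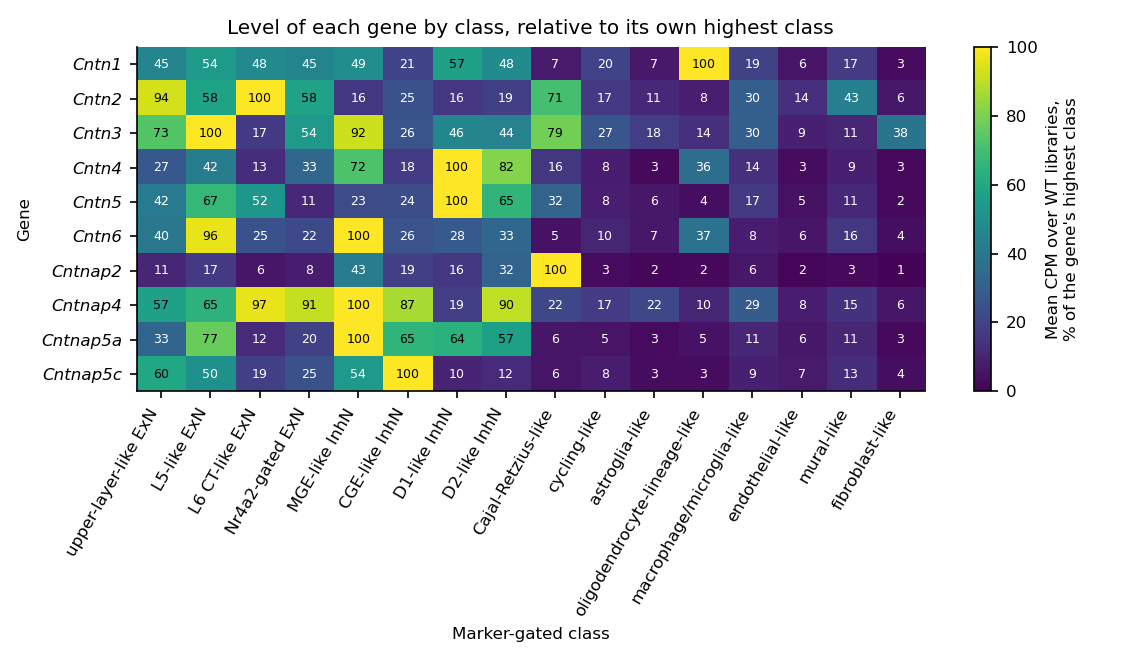
Mean CPM over the WT libraries of each gene (rows) in each of the 16 marker-gated classes (columns), as a percentage of the gene's own highest class, printed in each cell and shown by colour. The genes peak in different classes, and for Cntnap2 every class other than Cajal-Retzius-like neurons is dark, since the peak level was 2.35 times that of the next class.

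Cntnap2, the partner of Cntn2 at potassium channel clusters, was highest in Cajal-Retzius-like neurons, the reelin-secreting cells of the cortical surface. WT libraries ran from 9244 to 17152 CPM (median 13864) and Het libraries had 16067, 16740.2, 18731 and 13945 CPM, with 1 Het male above the WT range. The WT mean was 13519 ± 2538 CPM (SD, n = 8), and MGE-like InhN (5747 ± 209.9 CPM), D2-like InhN (4318 ± 379 CPM) and CGE-like InhN (2561 ± 178 CPM) followed in steps without overlap. Among the classes named ExN, which leave out Cajal-Retzius-like neurons, Cntnap2 stood highest in L5-like ExN (2308 ± 238 CPM) and lowest in L6 CT-like ExN (808 ± 136 CPM). With thinning, 95.4% of Cajal-Retzius-like and 8.53% of fibroblast-like nuclei held a Cntnap2 UMI. Macrophage/microglia-like nuclei had 858 ± 602 CPM of it (n = 7), a mean above that of L6 CT-like ExN, and mural-like nuclei 359 ± 273 CPM (n = 6).

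Cntnap4, a presynaptic protein of interneurons, varied little among its highest classes. MGE-like InhN ran from 291 to 489 CPM in WT (median 391) and had 365, 302, 316 and 433 CPM in Het libraries. L6 CT-like ExN (379 ± 54.1 CPM), Nr4a2-gated ExN (357 ± 70.1 CPM, n = 7) and CGE-like InhN (342 ± 43.4 CPM) were close to it. D2-like InhN had 355 ± 281 CPM, a mean raised by WT male 4, at 1031 CPM from 13 nuclei. D1-like InhN stood far lower at 73.4 ± 27.5 CPM, near astroglia-like nuclei at 85.3 ± 28.3 CPM.

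Cntnap5a and Cntnap5c are paralogs of the Cntnap5 group, and their high classes differed. Cntnap5a was highest in MGE-like InhN, from 929 to 1243 CPM in WT (median 1033) and at 903, 1141, 884 and 1380.4 CPM in Het libraries. L5-like ExN (819.8 ± 156 CPM) and CGE-like, D1-like and D2-like InhN followed, and all 5 lay above upper-layer-like ExN (349.5 ± 36.6 CPM), the last of them without overlap. Cntnap5c was highest in CGE-like InhN, from 332 to 815 CPM in WT (median 536) and at 596, 743, 650.4 and 746 CPM in Het libraries. Upper-layer-like ExN had 328 ± 51.1 CPM of it and overlapped with the highest class, and both striatal classes were low, at 52.9 ± 32.9 CPM in D1-like and 67.1 ± 30.6 CPM in D2-like InhN.

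**Figure D2:**
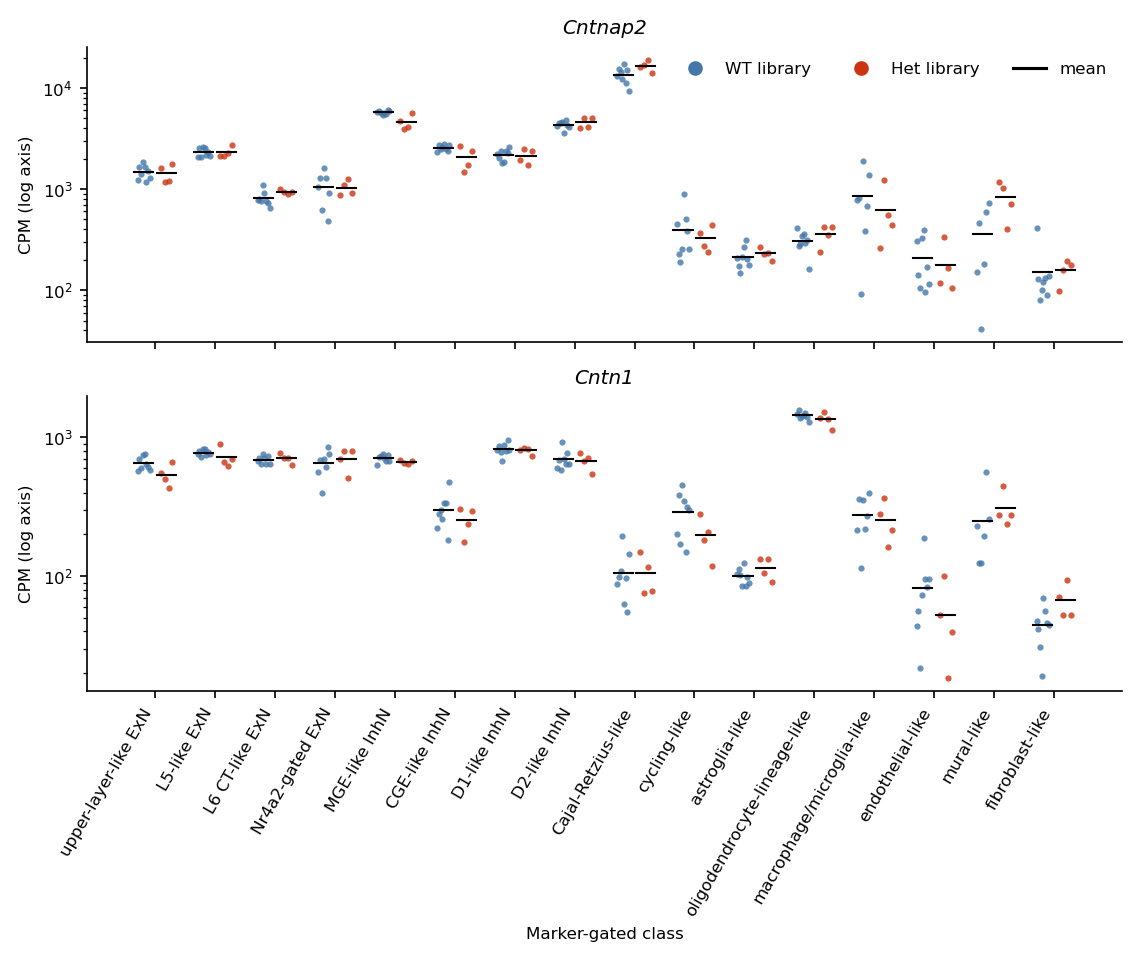
Level of Cntnap2 (top) and Cntn1 (bottom) in each marker-gated class in CPM on a log axis, with 1 point per library (blue WT, red Het) and a line at each genotype's mean. Cntnap2 is highest in Cajal-Retzius-like neurons and Cntn1 in oligodendrocyte-lineage-like nuclei in both genotypes, and WT and Het points overlap in every class shown.

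The class profiles of the genes differed from one another. Over the 16 class means Pearson's r of log2(CPM + 1) was highest between Cntn1 and Cntn6 (0.87) and Cntn1 and Cntn4 (0.85), was 0.82 between Cntnap5a and Cntnap5c, and was lowest between Cntn2 and Cntn4 (0.25). These are descriptions over 16 points that share the same libraries. Among 11420 other genes the profiles most like the contactins, with r in parentheses, were Plppr1 (0.96) for Cntn1, Kcnk9 (0.95) for Cntn2, Spink10 (0.83) for Cntn3, Ank1 (0.95) for Cntn4, Gm46102 (0.96) for Cntn5 and Scn1a (0.91) for Cntn6. For the Cntnap genes they were Ryr2 (0.91) for Cntnap4, Cacng3 (0.95) for Cntnap5a and Cnr1 (0.91) for Cntnap5c. The 3 most like Cntnap2 were Gm43882 (0.99), Gm43874 (0.97) and Gm43884 (0.95), all annotated inside Cntnap2 on its own strand, so their reads cannot be told apart from those of Cntnap2.

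Class differences were then tested in the WT libraries with edgeR on summed UMIs, with library as a term and p adjusted by Benjamini-Hochberg over all genes of a contrast. A gene was called at an adjusted p under 0.05 with a log2 difference of at least 0.2, and the share of all genes called in the same direction is given beside each count. Of 79 tests on the 10 genes 60 gave a call, against 34.1% of all tests of genes in these 8 contrasts, and 48 of the calls were made in all 16 other settings. Since the genes were chosen with earlier results of these data known, this share is a description.

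Between all excitatory and all inhibitory nuclei 1 of the 10 genes was higher in excitatory nuclei (18.7% of 15058 genes were) and 4 were lower (18.7%). Cntn2 was the higher one, at 123 ± 30.9 CPM against 24.4 ± 5.06 CPM, a log2 difference of 2.42 with a standard error (SE) of 0.0738 (adjusted p = 1.34e-13, edgeR). Its inhibitory mean lay below those of mural-like (58.7 ± 50.1 CPM, n = 6) and macrophage/microglia-like nuclei (41.2 ± 31.6 CPM, n = 7). Cntnap2 was lower in excitatory nuclei at 1391 ± 228 CPM against 4065 ± 252 CPM (log2 difference -1.50, SE 0.0620), as were Cntn4 (-1.37), Cntnap5a (-1.19) and Cntn6 (-0.36). Cntn1, Cntn3, Cntn5, Cntnap4 and Cntnap5c were not called, with log2 differences from 0.018 to 0.17, although Cntnap5c was without WT male 4 (0.23) and without the low-count filter (0.24). The Cntn6 difference was -0.16, without a call, in all 12 libraries and 0.14 with all deposited barcodes, where Cntn3 (0.29) and Cntnap5c (0.21) were called too and the counts became 3 higher and 3 lower (18.3% and 18.6% of genes). In such pooled groups the mix of classes and the level within a class cannot be told apart: D1-like and D2-like nuclei made up 5.33% of inhibitory nuclei in WT male 4 and 26.3% to 49.8% in the other WT libraries.

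L5-like ExN, which include the neurons that project out of the cortex, exceeded upper-layer-like ExN in 8 of the 10 genes (12.2% of 11527 genes were higher). Cntn6 (1.30, SE 0.0897, adjusted p = 1.11e-11, edgeR) and Cntnap5a (1.25, SE 0.0797) differed most on the log2 scale. Cntn5 (0.72), Cntnap2 (0.70), Cntn4 (0.66), Cntn3 (0.49), Cntn1 (0.29) and Cntnap4 (0.23) were higher by less. The Cntnap4 call was lost without WT male 2 (0.20), WT male 3 (0.20), WT male 4 (0.21) or WT female 2 (0.19), with DESeq2 (0.23), without the library term (0.23) and without the low-count filter (0.14), which also took Cntn1 (0.19) under the size threshold. Cntn2 alone was lower in L5-like ExN (-0.71, SE 0.0856; 9.03% of genes were lower). Cntnap5c was not called (-0.22, adjusted p = 0.0894, edgeR), but was without WT male 1 (-0.35), without the low-count filter (-0.32), with all deposited barcodes (-0.43) and in all 12 libraries (-0.30).

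L6 CT-like ExN, which project to the thalamus, were lower than upper-layer-like ExN in 6 genes (15.9% of 13343 genes were) and higher in 2 (16.5%). Cntn3 fell by 2.11 on the log2 scale (SE 0.0799, adjusted p = 9.60e-18, edgeR), from 338 to 79.2 CPM. Cntnap5c (-1.63), Cntnap5a (-1.41), Cntn4 (-1.01), Cntnap2 (-0.81) and Cntn6 (-0.62) were lower as well. Cntnap4 (0.81, SE 0.0520) and Cntn5 (0.37, SE 0.0550) were higher, and the Cntn5 call was lost with all deposited barcodes (0.13). Cntn1 (0.12) and Cntn2 (0.19) stayed under the size threshold, which Cntn2 passed without WT male 2 (0.21), WT male 5 (0.21) or WT female 3 (0.25) and with all deposited barcodes (0.27), and Cntn1 in all 12 libraries (0.23).

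Nr4a2-gated ExN were few, with 19 to 42 nuclei in each of 7 WT libraries, and WT male 4, with 9, did not reach the 10 needed. In these 7 libraries 7 of the 10 genes were lower than in upper-layer-like ExN (6.99% of 11694 genes were) and 0 higher (3.7%). The median gene of this contrast lay at -0.22, and with RLE scaling it lay at 0.053 and the calls over all genes went from 433 higher and 817 lower to 603 higher and 367 lower, so values are given relative to the median gene. Cntn5 lay at -1.99, Cntnap5c at -1.25, Cntn2 at -0.91, Cntnap5a at -0.86, Cntn6 at -0.85, Cntnap2 at -0.57 and Cntn3 at -0.54, and these 7 were called with either scaling. DESeq2 did not call Cntnap2 or Cntn3, the fit without the library term did not call Cntn2 or Cntn3, and with all deposited barcodes Cntnap2 (log2 difference, not relative to the median, -0.10) and Cntnap5a (-0.16) were not called. Cntnap4 lay at 0.59, without a call, and was called higher in 7 other settings, among them RLE scaling, where it lay at 0.60. Another was DESeq2, where the median gene lay at 2.06 and Cntnap4 at -1.42 relative to it. Cntn1 (-0.064, and -0.051 with RLE scaling) and Cntn4 (0.21 and 0.22) were called with neither scaling.

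Among interneurons MGE-like InhN exceeded CGE-like InhN in 7 genes (13.6% of 8940 genes were higher). Cntn4 (2.09, SE 0.101; 1371 against 341 CPM), Cntn6 (2.04, SE 0.0842) and Cntn3 (1.97, SE 0.125) differed most on the log2 scale. Cntn1 (1.34), Cntnap2 (1.23), Cntnap5a (0.73) and Cntnap4 (0.26) were higher too, the last not without WT male 3 (0.23), with DESeq2 (0.26) or without the library term (0.25). Cntnap5c (-0.80, SE 0.0976) and Cntn2 (-0.59, SE 0.170) were lower (12.5% of genes were), and Cntn2 was not called with DESeq2, without the low-count filter or with all deposited barcodes. Cntn2 was low in both classes, at 21.8 ± 4.29 against 34.4 ± 6.23 CPM, below its means in mural-like and macrophage/microglia-like nuclei. Cntn5 was not called (0.051).

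D1-like and D2-like InhN, the future output neurons of the striatum, differed in 5 genes. Cntn5 (0.72, SE 0.0954; 3942 against 2573 CPM), Cntn1 (0.39) and Cntnap5a (0.30) were higher in D1-like InhN (8.21% of 7731 genes were), and the Cntnap5a call was lost without WT male 3 (0.23), WT male 5 (0.25) or WT female 1 (0.26), with DESeq2 (0.29), the stricter gate (0.18) and no library term (0.28). Cntnap4 (-1.55, SE 0.133, adjusted p = 3.02e-12, edgeR) and Cntnap2 (-0.90, SE 0.0784; 2191 against 4318 CPM) were lower (8.93%). Cntn2, Cntn3, Cntn4, Cntn6 and Cntnap5c were not called, but Cntnap5c was without WT female 3 (-0.70), with doublets kept (-0.42) and in all 12 libraries (-0.40), and Cntn4 was without the low-count filter (0.23). With all deposited barcodes 1 gene was higher and 4 lower (8.8% and 12.3% of genes), as Cntn1 (0.19) and Cntnap5a (0.10) lost their calls and Cntn6 (-0.37) and Cntnap5c (-0.58) gained them.

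Astroglia-like nuclei were lower than excitatory nuclei in all 10 genes (34.9% of 14841 genes were lower and 31.8% higher), by log2 differences from -2.15 (Cntnap4) to -4.18 (Cntnap5c). Against oligodendrocyte-lineage-like nuclei they were lower in 5 of the 9 genes tested (22.9% of 8418 genes were) and higher in 2 (24.8%). Cntn1 (-4.01, SE 0.0788) and Cntn4 (49.0 against 687 CPM) differed most on the log2 scale, followed by Cntn6 (-2.70), Cntnap5a (-0.93) and Cntnap2 (-0.76). Cntnap4 (0.85) and Cntn5 (0.62) were higher in astroglia-like nuclei. Cntn3 was called only with the stricter gate (0.68). Cntn2 did not pass the filter on low counts here.

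**Figure D3:**
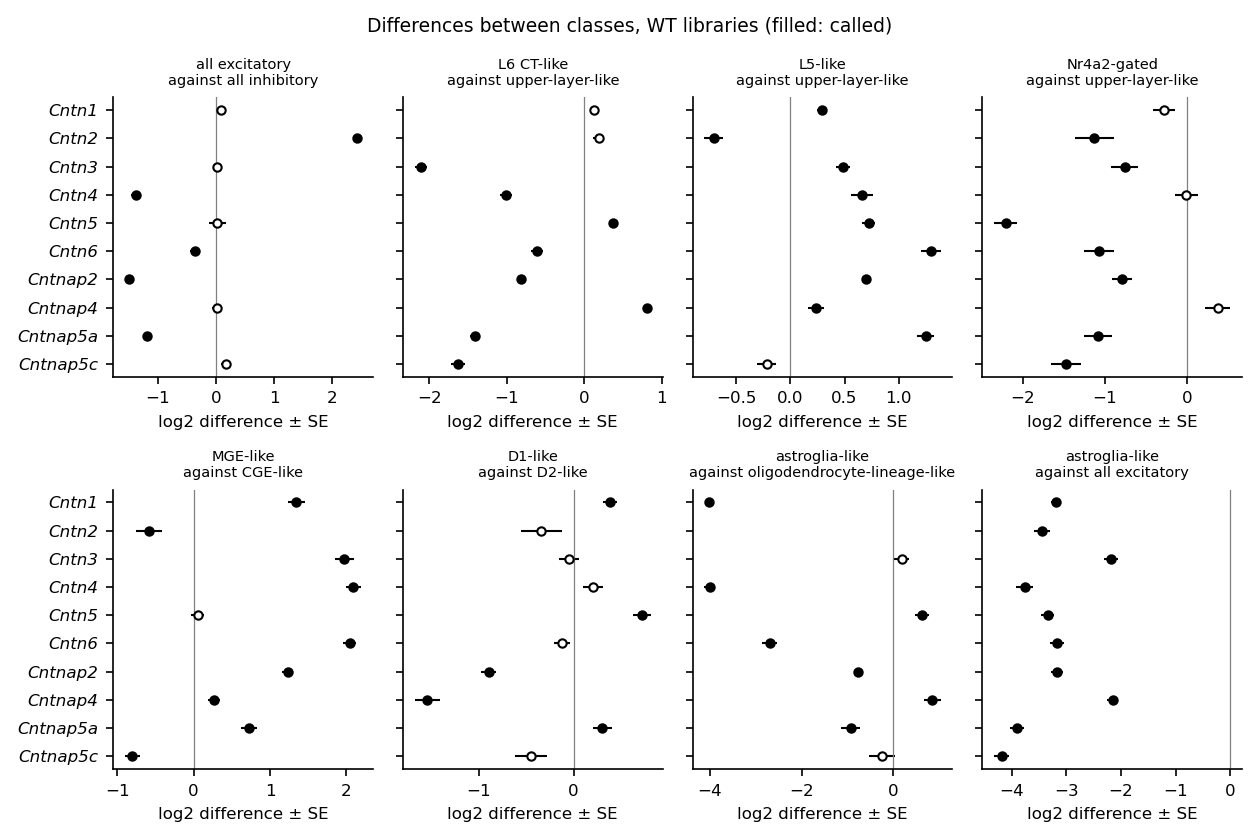
Log2 difference between classes of each gene with its standard error, from edgeR on the 8 WT libraries (7 for Nr4a2-gated ExN), with 1 panel per contrast. Values right of the line are higher in the class named first and filled points were called, and all 10 genes lie left of the line for astroglia-like against all excitatory nuclei.

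A list of 25 further genes held the other Cntnap genes and known partners of both families. Of 25 tested between excitatory and inhibitory nuclei, 6 were higher and 10 lower in excitatory nuclei, against 18.7% and 18.7% of all 15058 genes. Cntnap3 was lower in excitatory nuclei (log2 difference -4.30, SE 0.101), as were Cntnap1 (-1.95) and Cntnap5b (-0.92). Cntnap1, the paranodal partner of Cntn1, was scarcely detected, at 0.455 ± 0.308 CPM in excitatory and 2.09 ± 1.07 CPM in inhibitory nuclei. Cntnap3 stood at 327 ± 24.6 CPM in MGE-like InhN and was higher there than in CGE-like InhN (4.09), and it was higher in D1-like than in D2-like InhN (3.56). Cntnap5b was higher in both L5-like (2.38) and L6 CT-like ExN (2.08) than in upper-layer-like ExN, whereas Cntnap5a was higher in the first and lower in the second.

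Of the 9 receptors and ligands of contactins 2 were higher and 3 lower in excitatory than in inhibitory nuclei (18.7% and 18.7% of all genes were). Tnr, a tenascin bound by Cntn1, was higher (2.06 on the log2 scale), as was Aplp1 (0.21), a relative of amyloid precursor protein, and Spon1 (-1.05), Ptprz1 (-0.48) and App (-0.25) were lower. Ptprg, a phosphatase that binds Cntn3, Cntn4, Cntn5 and Cntn6, was higher in L5-like (1.14) and L6 CT-like ExN (0.77) than in upper-layer-like ExN and was not called between excitatory and inhibitory nuclei (-0.039). In astroglia-like against excitatory nuclei 6 of the 9 were higher and 3 lower (31.8% and 34.9% of all genes were). Notch1 (5.79), Ptprz1 (4.62) and Aplp2 (0.61) were among the higher. Tnc, another tenascin and counted among the 9, was 1 of the markers that gated the astroglia-like class, so its difference there is no result. It was lower in L5-like than in upper-layer-like ExN (-1.47), but every nucleus was scored on all markers, so this value is not independent of the gate. Of the 4 L1-type adhesion genes 3 were higher and 0 lower in excitatory than in inhibitory nuclei (18.7% and 18.7%), namely L1cam (0.50), Nrcam (0.45) and Nfasc (0.34). The fourth, Chl1, was not called there (-0.14) and was higher in MGE-like than in CGE-like InhN (0.87).

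Of the 9 genes of the Cntnap2 potassium channel complex 1 was higher and 4 were lower in excitatory nuclei (18.7% and 18.7% of all genes were). Kcna1, a gene of the channel, was the higher one (0.98), and Kcna2, another, was not called there. The lower ones were Kcnab2 (-0.85) and Kcnab1 (-0.43), channel subunits, Epb41l3 (-0.81), a cytoskeletal linker of Cntnap2, and Lgi1 (-0.55), a secreted protein linked to epilepsy. Among excitatory classes Lgi1 was higher in L6 CT-like (2.57) and, by less, in L5-like ExN (adjusted p = 1.10e-11, edgeR) than in upper-layer-like ExN, and Kcnab1 was higher in MGE-like than in CGE-like InhN (1.20) and in L6 CT-like than in upper-layer-like ExN (adjusted p = 1.96e-14, edgeR). Dlg4, a synaptic scaffold, was higher in L6 CT-like and L5-like ExN, by 0.52 and 0.36. Adam22 (-0.21), a receptor of Lgi1, was lower in L5-like ExN, and Adam23 (0.40), another, was higher in D1-like than in D2-like InhN. In astroglia-like against excitatory nuclei 2 of the 9 were higher and 7 lower (31.8% and 34.9% of all genes were), and Kcna2 was among the higher (2.29).

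Genotypes were compared within each class with edgeR and genotype as the only term, to ask whether the loss of 1 intact Myt1l copy came with a change in these genes. Of 160 pairs of gene and class 134 passed the filter on low counts and 0 were called (0.0123% of all 97478 pairs were). At an unadjusted p under 0.05 there were 26 of the 134 pairs (19.4%, against 6.41% of all pairs), and DESeq2 called 1. The pairs share the same libraries, and the genes were chosen with earlier results known, so these shares are a description and not a test. In Het libraries 66 pairs were higher and 68 lower, and WT and Het libraries overlapped in each of the 134.

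Cntnap2 in MGE-like InhN had the smallest p. WT libraries ran from 5416 to 6013 CPM (median 5764) and Het libraries had 4690.3, 3936, 4138 and 5642 CPM, with the 3 males below every WT library and the female within the WT range. The log2 difference, Het minus WT, was -0.33 (SE 0.0737, adjusted p = 0.0677, edgeR), and it was below 0 in all 21 other settings. A 95% interval by normal approximation, narrower than the edgeR test itself would give, ran from -0.48 to -0.19. The pair was picked for the smallest p of 134 pairs. It was called by DESeq2 (adjusted p = 0.0187; 0.0225% of all pairs were called) and, in edgeR, in males only (-0.44, adjusted p = 0.00190; 0.271%), without Het female 1 (-0.45, adjusted p = 0.000402; 0.352%) and without the filter on low counts (-0.32; 0.214%). Summed markers of MGE interneurons in these nuclei ran from 11953 to 13335 CPM in WT and from 10792 to 12141 CPM in Het libraries. The 9 broad excitatory markers ran from 45.2 to 141 and from 109 to 231 CPM, and the part of either list in the difference was not tested.

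Some of the other pairs with a small p lay in L6 CT-like, upper-layer-like and L5-like ExN, and those in other classes follow below. In L6 CT-like ExN Cntnap5a ran from 100.3 to 149 CPM in WT and had 158, 131, 191 and 179 CPM in Het libraries (log2 0.37, SE 0.103, adjusted p = 0.265, edgeR). Cntn6 in the same class ran from 159 to 215 CPM in WT and had 181, 315, 299.5 and 149 CPM in Het libraries (log2 0.41, adjusted p = 0.471, edgeR). Het males 2 and 3 lay above the WT range for Cntn6, and all Het libraries but male 2 lay above it for Cntnap5a. Cntn6 was called in males only (0.63), without Het female 1 (0.59) and without the low-count filter (0.39). Cntn2 in upper-layer-like ExN ran from 80.5 to 202 CPM in WT and had 138, 235, 208 and 161 CPM in Het libraries (log2 0.57, SE 0.179, adjusted p = 0.292, edgeR), and it was called in males only (0.67) and without the low-count filter (0.58). Cntn3 in L5-like ExN, given above by library, had a log2 difference of 0.36 (SE 0.115, adjusted p = 0.638, edgeR), with a call in males only (0.58). Without Het female 1, Cntn1 (-0.40), Cntnap4 (-0.52) and Cntnap5c (-0.60) were called lower in upper-layer-like ExN, from -0.28, -0.35 and -0.21 with all libraries.

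In inhibitory classes Cntn4 had log2 differences below 0 in MGE-like InhN, with WT libraries from 1183 to 1662 CPM and Het libraries at 1327, 1024, 1030.3 and 1139 CPM (log2 -0.29, SE 0.0981, adjusted p = 0.347, edgeR), and in D1-like InhN (log2 -0.49, adjusted p = 0.669), without a call, although the latter was called without the low-count filter (-0.45, adjusted p = 0.0359, edgeR). The other pairs called without that filter were Cntn4 in Cajal-Retzius-like neurons (-0.92), Cntnap5c in L5-like ExN (-0.47) and Cntn3 (2.02) and Cntnap4 (2.09) in mural-like nuclei. Cntnap4 in D1-like InhN ran from 26.9 CPM, the value of WT male 4, to 114 CPM in WT and had 105, 104, 107 and 113 CPM in Het libraries (log2 0.39, adjusted p = 0.648, edgeR). The last of the 10 smallest p belonged to Cntn1 in fibroblast-like nuclei, where its level is low (log2 0.67, adjusted p = 0.999, edgeR).

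Replicate numbers are shared between the genotypes, and with the number and sex as a block 3 pairs were called (0.104% of all pairs were). These calls rest on the pairing, although 3 of the 4 Het libraries correlated best with a WT library of another number. WT male 4, WT male 5, WT female 2 and WT female 3 have no Het library of their number. They add nothing to the blocked log2 differences, which rest on at most 4 pairs, whereas the WT ranges below are over all WT libraries of the class. Cntn3 in Cajal-Retzius-like neurons ran from 174 to 569.6 CPM in WT and had 208, 189.6, 256 and 240.0 CPM in Het libraries, all within the WT range (log2 -0.69, and -0.92 with the block, adjusted p = 0.00652, edgeR). Cntnap2 in the same class was 0.29 without and 0.29 with the block (adjusted p = 0.0312, edgeR). In mural-like nuclei, with 6 WT libraries, Cntnap2 ran from 41.6 to 724 CPM in WT and had 1179.6, 1022, 404 and 719 CPM in Het libraries (log2 1.10, and 2.00 with the block, adjusted p = 0.0172, edgeR). Cntn3 did not pass the filter in mural-like nuclei, where it had 14 UMIs in all WT libraries and 49.5 in the Het libraries.

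**Figure D4:**
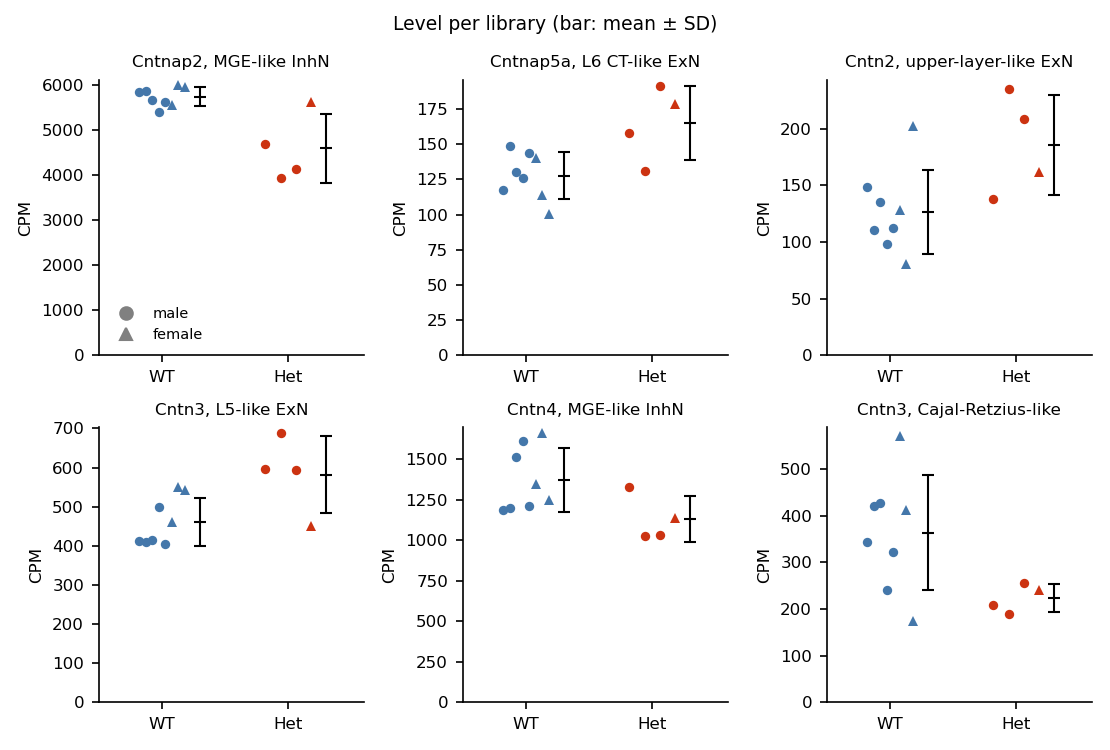
CPM per library of the 6 gene and class combinations with the lowest genotype p (circles male, triangles female; blue WT, red Het), with bars at the mean ± SD. In MGE-like InhN the 3 Het males lie below every WT library for Cntnap2 and the Het female lies within the WT range.

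Over the pooled groups 0 of 30 tests gave a call (0% of genes were called in all excitatory, 0% in all inhibitory and 0% in all kept nuclei with edgeR), and DESeq2 called 1, in all inhibitory nuclei (1.21% of the 2395 genes with an adjusted p there were called). At an unadjusted p under 0.05 there were 9 of the 30 (3, 4 and 2 of 10), against 11.4% of all genes tested in excitatory, 8.34% in inhibitory and 9.97% in all kept nuclei. In all inhibitory nuclei Cntnap2 ran from 3791 to 4596 CPM in WT and had 3300.2, 3399, 2956 and 3917 CPM in Het libraries (log2 -0.27, adjusted p = 0.399, edgeR, and 0.0274 in DESeq2). D1-like and D2-like nuclei made up 5.33% to 49.8% of these nuclei in WT and 45.3% to 65.2% in Het libraries, and MGE-like nuclei 33.9% to 66.1% and 24.3% to 34.4%, the WT range being 26.3% to 49.8% and 33.9% to 43.4% without WT male 4, and their part in the pooled values was not tested. Cntn6 (-0.43, and -0.39 with a call without the low-count filter, where 0.748% of genes were called), Cntnap4 (-0.33) and Cntn4 (-0.30) had log2 differences below 0, Cntnap5c (-0.18), Cntnap5a (-0.15) and Cntn3 (-0.055) smaller ones, and Cntn5 (0.23), Cntn2 (0.17) and Cntn1 (0.0031) values at or above 0.

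In all excitatory nuclei the log2 differences were 0.44 for Cntn2, 0.19 for Cntn6, 0.19 for Cntn3, 0.035 for Cntnap2 and 0.022 for Cntn4. They were -0.31 for Cntnap4, -0.23 for Cntn1, -0.19 for Cntn5, -0.14 for Cntnap5c and -0.085 for Cntnap5a. Cntnap4 was called without Het female 1 (-0.51, adjusted p = 0.0229, edgeR; 2.6% of genes were). Upper-layer-like nuclei made up 43.8% to 74.4% of excitatory nuclei in WT (median 59.9%) and 52.2% to 83.0% in Het libraries (median 75.4%), and L6 CT-like nuclei 15.2% to 46.0% (median 26.8%) and 10.4% to 32.7% (median 16.9%), and their part in these values was not tested. Over all kept nuclei Cntn2 lay at 0.26, and the other 9 genes lay below 0, from -0.30 (Cntnap4) and -0.26 (Cntnap5c) to -0.000080 (Cntnap2).

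**Figure D5:**
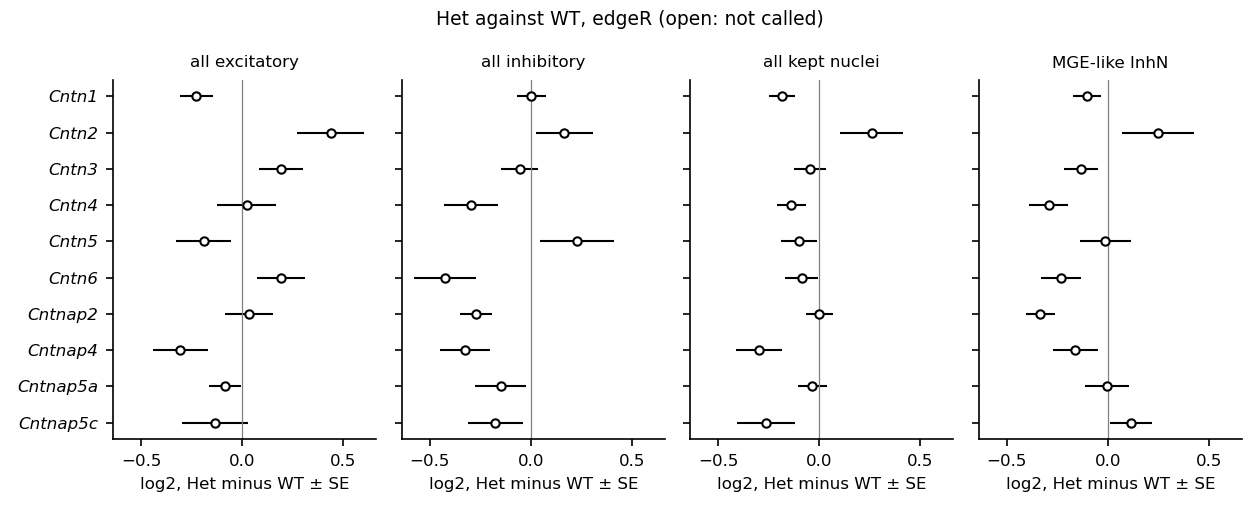
Log2 difference, Het minus WT, of each gene with its standard error from edgeR, in all excitatory, all inhibitory and all kept nuclei and in MGE-like InhN. All points are open since 0 were called, and Cntn2 lies right of the line in all 4 panels.

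Whether the genotype difference itself differed between inhibitory and excitatory nuclei was tested with an interaction chosen after seeing the data, and 0 of the 10 genes were called. Over the whole table of 15907 genes 0% were. Before adjustment 5 of the 10 genes (Cntn1, Cntn2, Cntn3, Cntn6 and Cntnap2) had p under 0.05, against 8.81% of all genes. Since the interaction was chosen after the differences of these genes had been seen, this share is a description and not a test. Cntn6 had the largest term, -0.60 on the log2 scale (SE 0.149, adjusted p = 0.238, edgeR), followed by Cntn5 in the other direction (0.48, adjusted p = 0.596, edgeR) and Cntnap2 (-0.31, adjusted p = 0.370, edgeR). Without WT male 4 they were -0.55, 0.32 and -0.35. Among the 25 partner genes 0 of 261 pairs of gene and class were called between genotypes with edgeR (0.0123% of all pairs were), and 30 had an unadjusted p under 0.05, against 6.41% of all pairs. The partner list too was chosen with earlier results known, and its share is a description.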

How the data were processed

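Nuclei of P1 forebrain were profiled with a split-pool kit in 8 WT and 4 Het libraries. The authors made the deposited matrices with the ScaleRna pipeline on mm10, with expected counts of UMIs per gene and barcode, since a UMI that matched several genes was divided among them. Submitters' processing notes also name Seurat 4.3.0. The annotation release and the use of strand are not given in the sources used here.

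Nuclei needed 800 to 6000 UMIs, 300 to 3000 genes and at most 1% mitochondrial UMIs. They also needed a log ratio of genes to UMIs of at least 0.9, and 98076 of 126684 barcodes passed. In each library the 5% of all barcodes with the highest simulated-doublet scores were marked, 6333 in all. Of these, the 3771 that had passed the filter were removed. Each nucleus was gated on 131 markers found in the files, with posterior odds of at least 9 and at least 2 markers detected. UMIs were summed per library and class and rounded to whole numbers for the tests, and CPM were computed from the sums. The design had assumed whole counts. Total UMIs per library ran from 15439429 to 40784144. Each library being 1 animal, p-values between genotypes set the difference against the spread between animals. Those of the class contrasts, with library as a term, set the mean class difference against how far it varies from animal to animal. The study drew its P1 animals from several litters, and the labels do not say which animal came from which.

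Tests used edgeR 4.0.16 (quasi-likelihood, TMM, filterByExpr) in R 4.3.3, with Benjamini-Hochberg adjustment over all genes of a fit. DESeq2 1.42.0, RLE scaling, no low-count filter, kept doublets, a stricter gate, all barcodes, sex as a term, males only, a replicate block and leaving out each library were the alternatives. Code was tested on simulated data. The members and lists were chosen with earlier results of these data known. Genes named were the 10 members, the partner genes called between excitatory and inhibitory nuclei or in another class contrast and the other Cntnap genes, the profiles most like each member, every member in the pooled groups and the 10 pairs of member and class with the smallest p between genotypes. Over 5886 genes the deviations of same-numbered WT and Het libraries correlated at 0.183, 0.179 and 0.243 for the males and 0.537 for the females. The numbers were taken as pairs only in the replicate block, and the main genotype fits had genotype as the only term. The labels do not say what a number shares. Of the 4 Het libraries 3 correlated best with a WT library of another number (Het male 1 at 0.618 with WT male 4). Gene positions came from GENCODE M21, which held 54587 of the 55335 gene IDs.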

Additional observations from a re-analysis of the deposited data

Results flagged for a closer look

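In 80 groups of libraries (each gene in each genotype, in its highest class and the pooled groups) the highest or lowest library was compared with the others by Dixon's criterion, and 5 stood apart. Chance alone gives about 1 in 20. Cntn1 over all kept nuclei was 523 CPM in Het male 3 and 590.2 to 592 CPM in the other Het libraries. Cntn6 in all excitatory nuclei was 288 CPM in Het female 1 and 371 to 377 CPM in the Het males. Cntn6 in all inhibitory nuclei was 682 CPM in WT male 4 and 317 to 442 CPM in the other WT libraries, and this library also had the lowest share of D1-like and D2-like among its inhibitory nuclei. Cntnap4 was higher in Het female 1 than in the Het males, at 308 against 187 to 194 CPM in all excitatory nuclei and at 272 against 179 to 187 CPM over all kept nuclei. Het female 1 is the only female of its genotype, so sex and animal cannot be told apart there.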

How the results depend on the processing

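The peak-class level of each gene moved by less than the spread between libraries, and the number of genes called in each class contrast, in both directions together, by less than 1.5 times, in every alternative run. By direction the counts moved more, most with all deposited barcodes, where excitatory against inhibitory went from 1 higher and 4 lower to 3 and 3 and D1-like against D2-like from 3 and 2 to 1 and 4. The number of pairs of gene and class, or of gene and pooled group, called between genotypes was less stable. Against 0, it was 1 with DESeq2, 8 without the low-count filter, 4 in males only and 3 with the replicate block in the gated classes, and 1 with DESeq2 and 1 without the filter in the pooled groups. Leaving out 1 library gave 0 to 5 in the classes and 0 to 1 in the pooled groups, the highest without Het female 1. The replicate block changed no call other than the 3 named in the report.

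None of the genotype differences that turned sign was called. With all deposited barcodes Cntn4 (-0.10) and Cntnap2 (-0.055) in all excitatory and Cntn1 (-0.043) in all inhibitory nuclei did so, Cntnap2 in all excitatory nuclei also in males only (-0.13) and Cntn1 in all inhibitory nuclei with the stricter gate (-0.022). With the replicate block Cntn3 in all inhibitory (0.035) and, over all kept nuclei, Cntn3 (0.069), Cntn6 (0.010) and Cntnap2 (0.0080) did, and Cntnap2 there also with RLE scaling (0.00028), no filter (0.012) and doublets kept (0.0013). Leaving out a library gave -0.11 to 0.12 for Cntn4 and -0.042 to 0.099 for Cntnap2 in all excitatory, -0.025 to 0.038 for Cntn1 and -0.11 to 0.016 for Cntn3 in all inhibitory, and -0.072 to 0.0070 for Cntn3, -0.065 to 0.060 for Cntnap2 and -0.086 to 0.040 for Cntnap5a over all kept nuclei.

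In the class contrasts Cntn6 between excitatory and inhibitory nuclei was the 1 called difference that turned (0.14 with all deposited barcodes). Uncalled ones were, for excitatory against inhibitory, Cntn3 (-0.085) and Cntnap4 (-0.11) with the stricter gate and Cntn5 in all 12 libraries (-0.14) and without the library term (-0.024). For Nr4a2-gated ExN, where the median of all genes went from -0.22 to 0.053 with RLE scaling and 2.06 with DESeq2 and where relative to it neither gene turned with RLE scaling, they were Cntn1 with DESeq2 (0.0022) and RLE scaling (0.0017) and Cntn4 with DESeq2 (0.27), RLE scaling (0.27), doublets kept (0.00037), all 12 libraries (0.12) and no library term (0.14). For D1-like against D2-like they were Cntn3 with doublets kept (0.0088), the stricter gate (0.027) and all 12 libraries (0.085), and for astroglia-like against oligodendrocyte-lineage-like Cntnap5c with the stricter gate (0.047). Leaving out a library gave -0.0013 to 0.051 for Cntn3, -0.13 to 0.16 for Cntn5 and -0.030 to 0.092 for Cntnap4 (excitatory against inhibitory), -0.19 to 0.13 for Cntn4 (Nr4a2-gated), -0.0084 to 0.091 for Cntn5 (MGE-like against CGE-like), -0.16 to 0.025 for Cntn3 (D1-like against D2-like) and -0.49 to 0.044 for Cntnap5c (astroglia-like against oligodendrocyte-lineage-like). Relative to the median gene Cntn4 in Nr4a2-gated ExN lay at 0.21 in the main fit and at -1.79 with DESeq2. The cause was not tested for any of these.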
